A study of Mus musculus with 8 samples.

Results

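The genes described here are 10 markers of the heart's outer cell layer, the epicardium, and of the mesothelium, the flat epithelium that also lines the pericardium and other body cavities. They were chosen by name as Upk3b, Upk1b, Wt1, Msln, Krt8, Krt18, Krt19, Lrrn4, Tbx18 and Tcf21, and all 10 were among the 22180 genes measured. A gene is the mean of the probe sets annotated to its symbol alone. Krt18 had 2 probe sets and each of the other members 1. RNA was measured on 8 expression arrays, 1 per heart, from 4 male and 4 female mice heterozygous for Pcyt2 (Pcyt2+/-) at 8 months of age. Pcyt2 encodes an enzyme that controls the rate of phosphatidylethanolamine synthesis. The tissue is labelled myocardium and the hearts were frozen 3 to 4 hours after lights on. Both sexes carry this genotype. Wild-type hearts are not part of the comparison and were not analysed here. Upk3b lies on chromosome 5, Upk1b on 16, Msln on 17, Tbx18 on 9, Tcf21 on 10, Krt19 on 11, Lrrn4 and Wt1 on 2, and Krt8 and Krt18 on 15.

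The epicardium is a single sheet of mesothelial cells over the heart muscle. In the embryo it gives rise to many of the heart's fibroblasts and mural cells through an epithelial to mesenchymal transition, under transcription factors that include Wt1, Tbx18 and Tcf21. In the adult it is largely quiescent and is known by surface proteins such as uroplakins and mesothelin and by keratins of simple epithelia. Epicardial fat and the atria lie under the same sheet, so a dissected heart can carry more or less of it.

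Each value is a log2 value relative to the probe set's own median over the 8 arrays, so 0 marks that median and no absolute level is known. Whether a marker was expressed above background thus could not be read, nor could levels be compared between genes. Xist was higher on every array labelled female and 3 Y-linked genes were higher on every array labelled male. In whole tissue, fewer cells of a type and less RNA per cell cannot be told apart. What limits the precision is the number of arrays.

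RefSeq promoters of the build GRCm38.p6 were matched by symbol for 6 of the 10 members. Those of Upk3b and Lrrn4, the matched members whose values ran most alike across the hearts, are shown with that of Tbx18, which ran least like Upk3b. Each is the 250 bases before the start site, 5′ to 3′ on the gene's strand. The windows are chr5:136038246-136038495 (plus strand) for Upk3b, chr2:132880863-132881112 (minus strand) for Lrrn4 and chr9:87731261-87731510 (minus strand) for Tbx18. Capitals mark matches to any of 7 motifs searched on both strands, which did not overlap one another in these windows.
Upk3b: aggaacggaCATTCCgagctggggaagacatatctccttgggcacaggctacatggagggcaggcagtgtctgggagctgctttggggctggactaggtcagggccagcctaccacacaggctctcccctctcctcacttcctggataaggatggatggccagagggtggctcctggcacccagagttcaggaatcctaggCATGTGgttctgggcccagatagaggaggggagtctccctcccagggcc
Lrrn4: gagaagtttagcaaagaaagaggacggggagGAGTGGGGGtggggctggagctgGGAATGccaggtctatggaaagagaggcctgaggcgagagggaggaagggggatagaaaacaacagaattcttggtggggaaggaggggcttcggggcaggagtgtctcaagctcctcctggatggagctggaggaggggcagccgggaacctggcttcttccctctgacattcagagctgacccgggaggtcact
Tbx18: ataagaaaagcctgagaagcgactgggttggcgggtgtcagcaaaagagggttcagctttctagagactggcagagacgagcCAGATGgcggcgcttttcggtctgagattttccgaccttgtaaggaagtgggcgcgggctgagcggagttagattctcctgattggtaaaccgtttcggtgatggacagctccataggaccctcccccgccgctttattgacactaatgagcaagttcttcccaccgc

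The motifs were CATTCC, bound by TEAD factors, the E-box CANNTG of basic helix-loop-helix factors such as Tcf21, the GC box GGGCGG, the T-box half-site AGGTGT, the GATA motif AGATAA, the TATA box TATAAA and GNGTGGGNG for Wt1. The TEAD motif was found in the Upk3b window, beginning at base -241 from the start site, and in the Lrrn4 window at -196. It was in 12.6% of 32817 promoter windows of the same length. Of the 6 members with a window, Tbx18, Tcf21, Krt8 and Krt18 had no match to it there. The Wt1 motif was found in the Lrrn4 window at -219, against 12.7% of all windows. An E-box was found in the Upk3b window at -49, the Tbx18 window at -168, the Krt8 window at -184 and -111 and the Krt18 window at -214, and 66.2% of all windows held one. The GC box (32.7% of all windows), the TATA box (12.4%) and the T-box half-site (11.8%) had no match in the 6 windows. The GATA motif, in 9.99% of all windows, was found in the Krt8 and Tcf21 windows. These matches describe letters in a window and do not show binding.

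Among the members, the uroplakin genes varied most from heart to heart. Upk3b, a uroplakin that in the heart is hardly known outside mesothelium, was at -0.25, 0.03, -0.26 and 0.35 in males 1 to 4 and at -0.35, -0.03, 0.36 and 0.94 in females 1 to 4. Female 4 stood highest and female 1 lowest, 2.44-fold apart, and both sexes held low and high hearts. The range of 1.29 on the log2 scale was larger than that of 99.8% of all genes, whose median range was 0.22. Upk1b, a tetraspanin that pairs with other uroplakins, was at -0.07, 0.25, 0.04 and 0.45 in males 1 to 4. In females 1 to 4 it was at -0.34, -0.06, -0.04 and 0.50. Its highest hearts were female 4 and male 4 and its lowest was female 1, with a range of 0.84, or 1.79-fold.

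Msln encodes mesothelin, a surface glycoprotein of mesothelial cells. It was at 0.08, -0.08, -0.09 and 0.16 in the males and at -0.24, -0.03, 0.03 and 0.28 in the females, in the order of the replicate numbers. Female 4 and male 4 were again the highest and female 1 the lowest, 1.43-fold apart. Lrrn4, a leucine-rich repeat membrane protein gene used as a mesothelial marker, was at -0.00072, 0.00072, -0.07 and 0.29 in the males and at -0.01, -0.0025, 0.20 and 0.23 in the females. Male 4, female 4 and female 3 stood above the other 5 hearts.

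The keratins, which build the filaments of simple epithelia, moved less. Krt8 was at 0.02, -0.18, -0.02 and 0.07 in the males and at -0.13, -0.14, 0.16 and 0.15 in the females. Females 3 and 4 were its highest hearts. Krt19 ran from -0.09 in male 1 to 0.10 in male 4, a range of 0.19. Krt18, the filament partner of Krt8, had a range of only 0.04, smaller than that of nearly all genes (percentile 1.06).

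That small range came from averaging probe sets that ran in opposite directions. The first Krt18 probe set was at -0.04, 0.0079, -0.0043 and -0.02 in the males and at -0.07, 0.0043, 0.07 and 0.10 in the females. The second was at 0.07, -0.03, 0.03 and 0.06 in the males and at 0.06, -0.04, -0.05 and -0.05 in the females. The Pearson correlation between them over the 8 arrays was -0.85. With Upk3b the first had a Pearson r of 0.86 and the second one of -0.59, so the mean value of Krt18 describes neither. Which of the probe sets measures the Krt18 transcript was not tested.

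The transcription factors shared the order of hearts seen in Upk3b only in part. Wt1, the zinc finger factor of the embryonic epicardium, was at 0.11, -0.08, 0.05 and -0.04 in the males and at -0.30, 0.04, -0.08 and 0.06 in the females. Female 1 lay well below the other hearts, which spanned -0.08 to 0.11. Tcf21, a factor of epicardial cells that cardiac fibroblasts keep, was at 0.0025, -0.01, -0.0025 and -0.19 in the males and at -0.28, 0.02, 0.07 and 0.14 in the females. Females 4 and 3 were its highest hearts and female 1 its lowest, as for Upk3b, but male 4, high in the uroplakins, was here the lowest male. Tbx18, a T-box factor also found in mural cells, was at -0.02, -0.11, 0.06 and 0.15 in the males and at 0.10, -0.07, 0.02 and -0.05 in the females. Its lowest female values were those of females 2 and 4.

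Counted by heart, 9 of the 10 members lay above their own median in female 4, 8 in male 4 and 7 in female 3. In females 1 and 2 there were 2 each. The other 3 hearts had 4 or 5. Female 4 held the highest value of 5 members and male 4 that of 3, while female 1 held the lowest value of 5. The mean over the members was 0.23 in female 4, 0.14 in male 4 and 0.07 in female 3, against -0.15 in female 1 and between -0.04 and -0.02 in the other 4 hearts. Krt18 entered these counts and means as the mean of its probe sets, of which the second was at -0.05 in female 4. Such counts were not made over all genes.

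**Figure D1:**
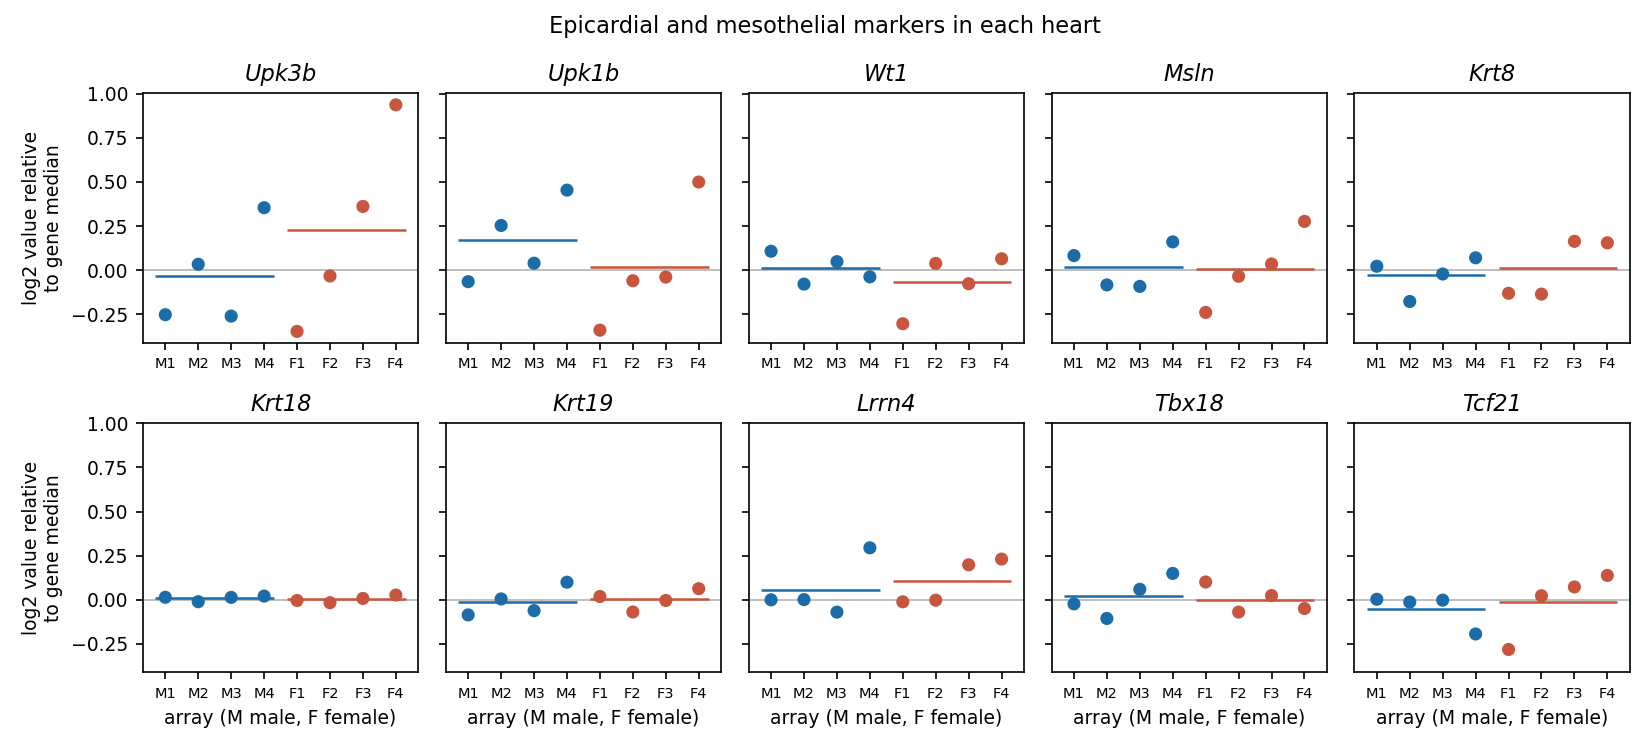
Log2 value of each marker relative to its median over the 8 arrays, with 1 point per heart (M1 to M4 males in blue, F1 to F4 females in red) and a line at the mean of each sex. Upk3b reaches 0.94 in female 4 and Upk1b 0.50, while Krt18 stays within 0.04 over all hearts.

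The comparison the design holds is that of females with males, and no member passed the test. In the limma fit over all genes 0 of the 10 members passed an adjusted p of 0.05, against 0.0316% of all genes (7 of 22180), and 0 had an unadjusted p under 0.05, against 6.96% of all genes. Female means were above male means for 5 members and below them for the other 5. Their median difference, females minus males, was 0.0035 on the log2 scale, beside -0.00058 over all genes. The sexes overlapped in all 10. Over all genes only 3.74% had no overlap, so this does not set the members apart. The labels call the samples biological replicates.

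The widest differences were those of the uroplakins, and they ran in opposite directions. For Upk3b the male mean was -0.03 ± 0.29 (SD, n = 4) and the female mean 0.23 ± 0.55 (SD, n = 4). The difference of 0.26 ± 0.26 (SE, 95% interval -0.32 to 0.84) had a limma adjusted p of 0.915. Either sex had a larger SD than this, and without female 4 the difference was 0.03 and without female 1 it was 0.45. For Upk1b the male mean was 0.17 ± 0.23 (SD, n = 4) and the female mean 0.01 ± 0.35 (SD, n = 4), with a difference of -0.16 ± 0.17 (SE, 95% interval -0.55 to 0.24, limma adjusted p = 0.931). Without female 1 it was -0.04, without male 4 -0.06, without male 1 -0.23 and without female 4 -0.32, and with the mean of 10 adipocyte markers as a covariate -0.40. For the other 8 members the differences lay between -0.08 (Wt1) and 0.05 (Lrrn4). The interval of Msln was -0.24 to 0.23 and that of Krt19 was -0.10 to 0.12. These intervals, from 4 hearts per sex, bound the difference and do not show that the sexes are alike.

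**Figure D2:**
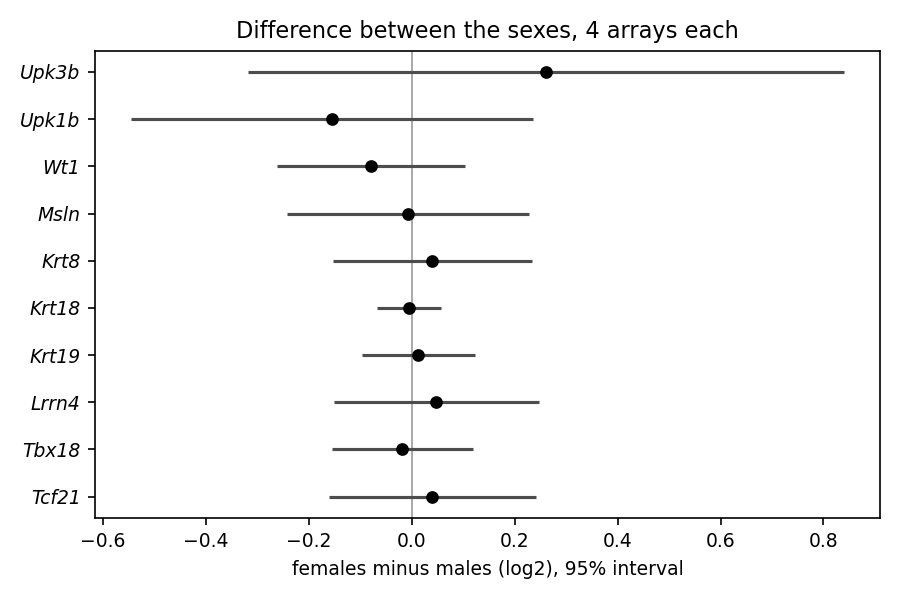
Difference between females and males for each marker on the log2 scale (points) with its 95% interval (lines), 4 arrays per sex. All 10 intervals cross 0, and that of Upk3b is the widest, from -0.32 to 0.84.

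Across hearts, the median correlation was higher among surface protein and keratin genes than in pairs with a transcription factor, a difference not tested. Pearson and Spearman correlations were computed for the 45 pairs of members over the 8 arrays, each with an exact two-sided permutation test over pairings of arrays. After Benjamini-Hochberg adjustment over the 45 pairs 0 passed, with 11 at an unadjusted p under 0.05 by Pearson's r and 5 by Spearman's rho. The pair with the highest correlation was Upk3b and Lrrn4 (r = 0.84, exact permutation p = 0.00749, adjusted p = 0.161, Spearman's rho = 0.88 with exact permutation p = 0.00724 and adjusted p = 0.326). Upk3b and Msln had r = 0.82 and rho = 0.79 (exact permutation p = 0.0116 and 0.0279), and Upk3b and Upk1b had r = 0.78 and rho = 0.74 (0.0198 and 0.0458). Without females 3 and 4, the hearts farthest from the median of Upk3b, r was 0.86 for Lrrn4, 0.68 for Msln and 0.89 for Upk1b. Male 4 stayed in, with Upk3b at 0.354, close to female 3 at 0.361. Among the hearts left, Lrrn4 was at 0.29 in male 4 and between -0.07 and 0.00072 in the others.

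The 21 pairs among the uroplakins, Msln, Lrrn4 and the keratins all had r above 0, from 0.35 to 0.84 with a median of 0.69. Of these, 6 use the mean of the Krt18 probe sets, and the 15 without Krt18 had a median of 0.75. The first Krt18 probe set had r above 0 with all 6 other genes (0.26 to 0.86), and the second had r below 0 with all 6 (-0.59 to -0.04). Some of these pairs rested on few hearts. Without male 4 and female 4, Upk1b had r between -0.11 and -0.02 with Krt8, Krt18, Krt19 and Lrrn4, and 0.37 with Msln. Without females 1 and 4, Msln kept r = 0.65 with Krt8 and 0.79 with Lrrn4. Of the 24 pairs with Wt1, Tbx18 or Tcf21, 17 had r above 0 and the median was 0.28. Among them Upk3b and Tcf21 had r = 0.50 and rho = 0.62 (exact permutation p = 0.206 and 0.115), and r = -0.07 without females 3 and 4. Upk3b had r = 0.27 with Wt1 and -0.15 with Tbx18. The lowest r of all pairs, -0.70, was that of Tbx18 and Tcf21, and the highest among the factors, 0.72, that of Wt1 and Tcf21. This grouping of the members was made after the values were seen, and the difference between the groups of pairs was not tested. With values centred within each sex, Upk3b and Upk1b had r = 0.96 (permutation p = 4.46e-04, adjusted p = 0.0201), and this was the only one of the 45 pairs to pass. The arrays were still permuted across the sexes there, so these p-values are approximate and the passing is uncertain.

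**Figure D3:**
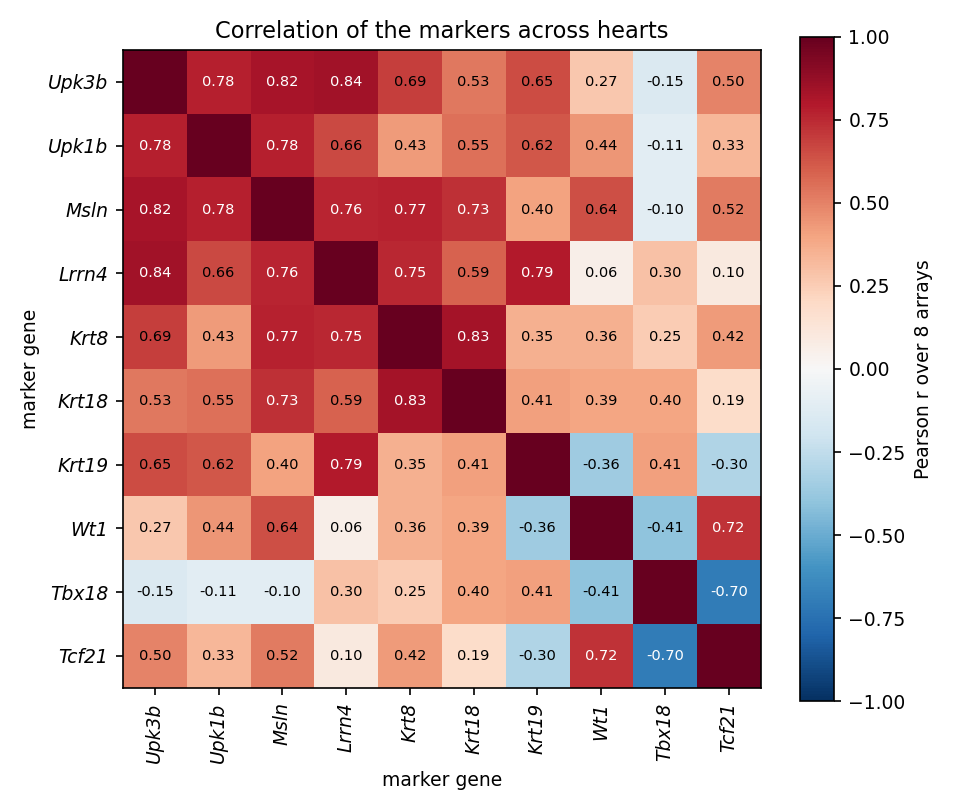
Pearson correlation of each pair of markers over the 8 arrays, from -1 (blue) to 1 (red), with r written in each cell off the diagonal. The upper left block of uroplakins, Msln, Lrrn4 and keratins, with Krt18 as the mean of its probe sets, lies between 0.35 and 0.84, and Tbx18 and Tcf21 stand at -0.70.

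Wt1, Tbx18 and Tcf21 are also known from other cells of the heart, and each was set against markers of these cells, a choice made after the data were seen. Wt1 had r = 0.77 with the mean of 10 endothelial markers (exact permutation p = 0.0724, adjusted over 3 relations 0.203, rho = 0.29 with adjusted p = 0.751). This rested on female 1, lowest in both: with 1 array left out at a time r ran from -0.09 to 0.91. Without male 1 and female 1, the hearts farthest from the Wt1 median, r was 0.47. Tbx18 had r = 0.58 with 10 pericyte and smooth muscle markers (exact permutation p = 0.136, adjusted p = 0.203, rho = 0.48), and 0.09 without males 2 and 4. Tcf21 had r = 0.21 with 13 fibroblast markers (exact permutation p = 0.606, adjusted p = 0.606, rho = 0.07), and -0.51 without male 4 and female 1.

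A second list of 15 mesothelial genes followed Upk3b closely. Its mean was at -0.07, -0.01, -0.11 and 0.08 in males 1 to 4 and at -0.11, -0.05, -0.0062 and 0.18 in females 1 to 4. Female 4 and male 4 were again the highest hearts, and female 1, male 3 and male 1 the lowest. With Upk3b this mean had r = 0.96 (exact permutation p = 1.24e-04, adjusted over 16 lists 0.00198) and rho = 0.98 (exact permutation p = 3.97e-04, adjusted p = 0.00635). Without females 3 and 4 r was 0.98, with 1 array left out at a time it ran from 0.90 to 0.99, and within sexes it was 0.97. The adjusted p within sexes was 0.00357 by a permutation across the sexes, which is approximate. Of the 16 lists the further mesothelial list alone passed. Members and lists were chosen with earlier results of these data known, which these p-values do not take into account.

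All 15 of these genes had r above 0 with Upk3b, with a median of 0.68, beside -0.0079 over the other 22179 genes. These 15 relations were added after the data were seen, and adjusted over them 4 passed. Gpm6a, a membrane glycoprotein gene, was at -0.47, 0.05, -0.52 and 0.18 in the males and at -0.16, -0.05, 0.09 and 0.57 in the females. Its r was 0.91 and its rho 0.90 (exact permutation p = 0.00107 and 0.00456, adjusted p = 0.0160 and 0.0342). Aldh1a2, whose enzyme makes retinoic acid in the epicardium, was at -0.33, 0.12, -0.25 and 0.16 in the males and at -0.16, -0.0058, 0.0058 and 0.44 in the females. Its r was 0.90 and its rho 0.83 (exact permutation p = 0.00250 and 0.0154, adjusted p = 0.0188 and 0.0769). Both genes had their highest value in female 4 and their lowest in male 1 or male 3, and without females 3 and 4 r was 0.80 for Gpm6a and 0.86 for Aldh1a2.

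The other genes of that list to pass were Bnc1, a zinc finger gene of mesothelium (r = 0.86, adjusted p = 0.0271), and Pkhd1l1 (r = 0.85, adjusted p = 0.0271), by the same exact permutation tests. By Spearman's rho Bnc1 and Gpm6a passed, 2 of the 15. The count of 4 fell to 0 without male 4 or without female 4 and to 2 without female 3. Muc16, a large mucin gene, had r = 0.74 (adjusted p = 0.0803) and the keratin gene Krt7 r = 0.77 (adjusted p = 0.0784). The genes with the lowest r were Rspo1, a Wnt agonist gene (0.05), Anxa8 (0.15) and Dmkn (0.16).

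A limma fit of each of the 22179 other genes on Upk3b, added after the data were seen, called 0 of them at an adjusted p of 0.05 (smallest adjusted p 0.384), and 1459 had an unadjusted p under 0.05. A rising slope at an unadjusted p under 0.05 was found in 3.58% of all genes. It was found in 4 of the 9 other members (Upk1b, Msln, Krt8 and Lrrn4) and in 8 of the 15 further mesothelial genes. It was not particular to them, being found also in 5 of 8 atrial muscle, 4 of 10 adipocyte and 4 of 15 retinoic acid genes. In each remaining list it was found in at most 2 genes. Gpm6a changed by 0.74 ± 0.12 (SE) on the log2 scale per unit of Upk3b, Upk1b by 0.52 ± 0.14 (SE) and Aldh1a2 by 0.52 ± 0.09 (SE). Msln changed by 0.31 ± 0.08 (SE) and Lrrn4 by 0.27 ± 0.07 (SE). The adjusted p over all genes was 0.408 for Gpm6a and Aldh1a2 and 0.668 for the 3 members.

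**Figure D4:**
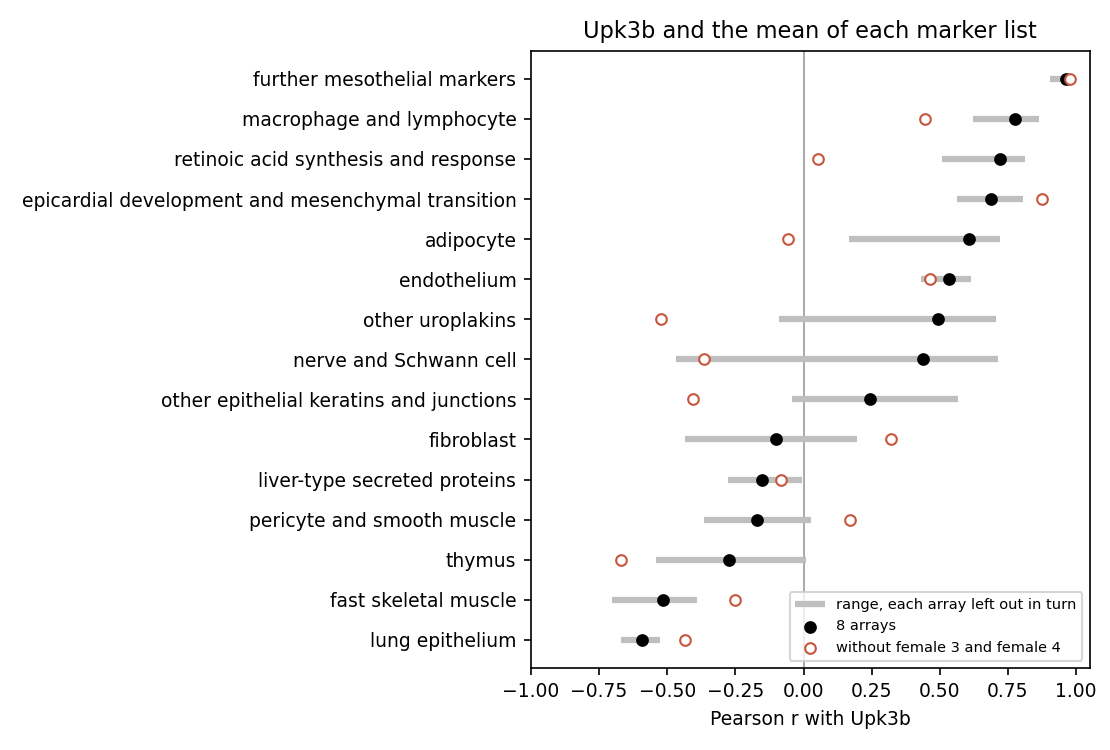
Pearson correlation of Upk3b with the mean of 15 marker lists over the 8 arrays (black), without females 3 and 4 (open red) and the range with each array left out in turn (grey). The further mesothelial markers stand at 0.96, and the atrial list is left out because its values form separate clusters.

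Marker genes of other tissues of a dissected heart also varied in these samples. The atrial list, of 8 genes of atrial muscle such as Myl7, Sln and Bmp10, had a mean of -0.593, -0.830 and -0.997 in males 1 and 3 and female 1. It lay between -0.15 and 0.45 in the other 5 hearts. For Bmp10 those 3 hearts were at -3.35, -2.25 and -3.46 and the others between -0.39 and 0.91. The 3 hearts low in atrial genes were also the 3 lowest in Upk3b and in the mean of the further mesothelial genes. All 3 remained when females 3 and 4 were left out, so the r of that mean with Upk3b there still spans this split. Since these 3 hearts stand apart from the other 5, no correlation over all 8 is given for this list, and none was computed within so few hearts. The list counted among the 16 in the adjustment and did not pass. Among those 5, female 2 had the highest atrial mean (0.45) with Upk3b at -0.03, and female 4 had 0.33 with Upk3b at 0.94.

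With the atrial mean as a covariate in the fit on Upk3b, 3 of the 9 other members (Msln, Krt8 and Lrrn4) and 6 of the 15 further mesothelial genes had a rising slope at an unadjusted p under 0.05, beside 3.06% of all genes. With sex as a covariate there were 4 and 9, beside 3.74%. No gene passed the adjustment in either fit. These fits had the other genes as outcome, so the part that the amount of atrial tissue has in the Upk3b values was not tested.

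Adipocyte markers, of which 10 were measured, had list means from -0.26 (male 1) to 0.49 (female 4) and r = 0.61 with Upk3b (exact permutation p = 0.109, adjusted p = 0.279, rho = 0.40). Without females 3 and 4 r was -0.06. All 10 adipocyte genes had higher means in females, beside 49.6% of all genes. With that list as a covariate in the comparison of the sexes, the Upk3b difference was -0.07 in place of 0.26. What part fat has in the Upk3b values was not tested.

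The list of macrophage and lymphocyte markers had r = 0.77 with Upk3b (exact permutation p = 0.0235, adjusted p = 0.186, rho = 0.79), and its means spanned -0.08 to 0.07. Genes of epicardial development and mesenchymal transition had r = 0.69 (exact permutation p = 0.0583, adjusted p = 0.186, rho = 0.52), and 14 of the 17 had a rising slope on Upk3b, beside 49.4% of all genes. At an unadjusted p under 0.05 a rising slope was found in 2 of the 17, beside 3.58% of all genes, and in 0 with the atrial covariate. Among them Tbx5, a T-box factor gene also known from heart muscle, had r = 0.76 and Gata6 r = 0.83, and the slope of Tbx5 had an unadjusted limma p of 0.210 with the atrial covariate. Aldh1a2 was in both the further mesothelial list and that of retinoic acid synthesis and response. The latter had r = 0.72 (exact permutation p = 0.0517, adjusted p = 0.186, rho = 0.67), but 0.05 without females 3 and 4. In female 3 this list included Cyp26b1, whose enzyme breaks down retinoic acid, at 0.81, and between -0.28 and 0.23 in the other hearts.

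None of the lists of other epithelia, which share keratins or uroplakins with mesothelium, passed with Upk3b. The lung epithelium list had means between -0.04 and 0.04 and r = -0.59 (exact permutation p = 0.122, adjusted p = 0.279, rho = -0.64). The other epithelial keratins and junction genes had means between -0.04 and 0.04 and r = 0.24 (exact permutation p = 0.570, adjusted p = 0.701, rho = 0.24). Krt7 was both in this list and in the further mesothelial list. The 4 other uroplakins had r = 0.49 (exact permutation p = 0.213, adjusted p = 0.341, rho = 0.33) and -0.52 without females 3 and 4. The remaining lists, of fibroblast, endothelial, pericyte and smooth muscle, thymus, fast skeletal muscle, liver-type, and nerve and Schwann cell genes, had r between -0.52 and 0.53, all at an adjusted exact permutation p of at least 0.319.

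**Figure D5:**
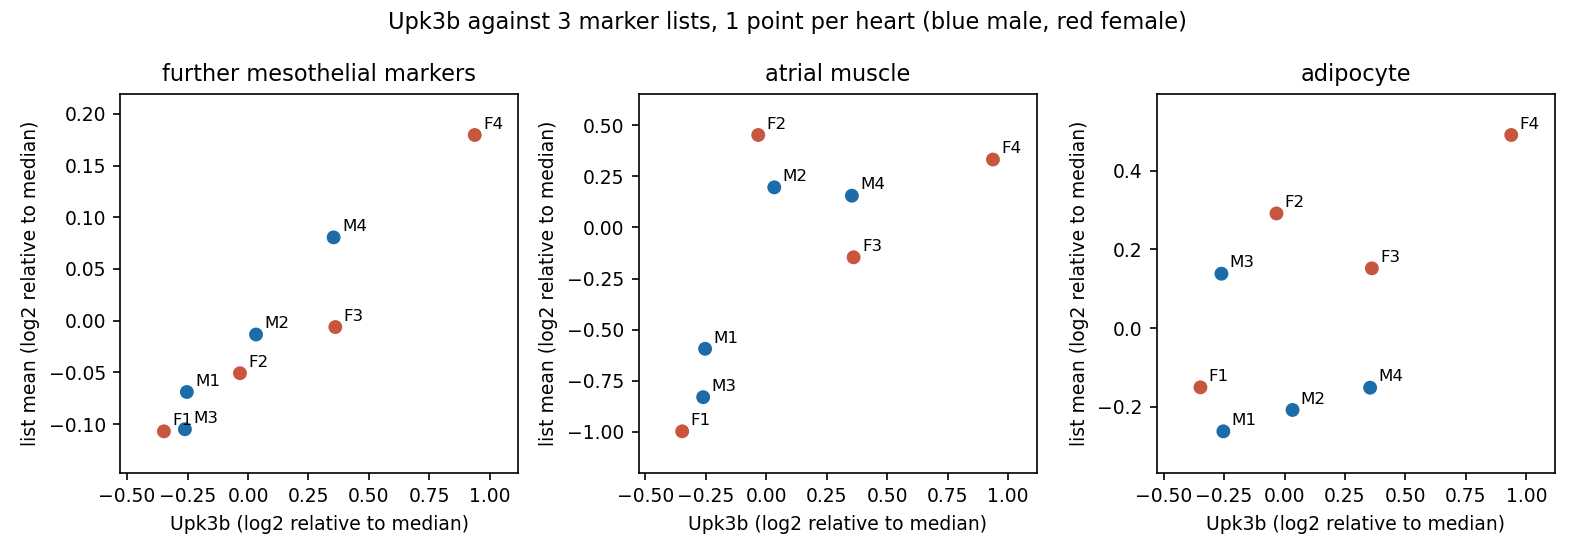
Upk3b (horizontal axis) against the mean of the further mesothelial, atrial muscle and adipocyte lists (vertical axes), all log2 relative to the median, with 1 point per heart (blue males, red females). Female 4 is highest in Upk3b at 0.94 and in the mesothelial and adipocyte means, and males 1 and 3 and female 1 are lowest in both Upk3b and the atrial mean.

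The pathway lists were also compared between the sexes in the same limma fit. Of the 15 further mesothelial genes 0 passed the adjustment and 3 had an unadjusted p under 0.05, beside 6.96% of all genes. Of the 15, 8 had higher means in females, beside 49.6% of all genes, and the median difference was 0.0042. For Rspo1 the difference was -0.21 ± 0.06 (SE, limma adjusted p = 0.499). Its males, from 0.00016 to 0.21, did not overlap its females, from -0.19 to -0.00016. Sema3d, a semaphorin gene of the epicardium, stood at 0.21 ± 0.06 (SE, limma adjusted p = 0.545). For epicardial development 0 of 17 genes passed (1 at an unadjusted p under 0.05), with Meis1 at 0.11 and Tgfb2 at -0.12. Of the 15 retinoic acid genes 0 passed (1 at an unadjusted p under 0.05), with Aldh1a1 at -0.27 ± 0.11 (SE, adjusted p = 0.671) and the carrier gene Rbp4 at 0.19. All 4 other uroplakins had higher means in females, with Upk3bl at 0.10 and Upk2 at 0.09, and 0 passed (0 at an unadjusted p under 0.05).

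Fibroblast genes had 8 of 13 higher means in males, with Dpep1 at -0.34 and Col1a2 at -0.30, and pericyte and smooth muscle genes 8 of 10, with Myh11 at -0.19 and Tagln at -0.15. Endothelial genes had 6 of 10, with Kdr at -0.19 and Cdh5 at -0.11. Atrial genes had higher means in females in 8 of 8, with Stard10 at 0.14 and Nr2f2 at 0.08, and fast skeletal muscle genes in 1 of 10, with Pvalb at -0.24 and Myh2 at -0.17. Over all genes 49.6% had higher means in females. The atrial mean was lowest in males 1 and 3 and female 1, and genes that vary together are not separate observations. In the adipocyte list Retn, an adipokine gene, differed by 0.46 and Car3 by 0.99, and without female 4 Car3 differed by 0.66. Among liver-type genes Alb differed by 1.15, with females 1 and 2 at 1.76 and 2.69 and the other 6 hearts between -0.18 and 0.03, and without female 2 by 0.61. Apoa2 differed by 0.20, and without female 1 by 0.13. Of the lists of other tissues, Sftpc (lung) had -0.09, Nkx2-1 (lung) -0.08, Cd8b1 (thymus) 0.15 and Foxn1 (thymus) -0.07. In the remaining lists Cldn4 had -0.11, Krt14 0.08, Chrna3 0.09, Ngfr 0.07, Cd3g 0.22 and Ms4a1 0.07. None of these lists had a gene past the adjusted threshold, and an unadjusted p under 0.05 was found for 5 fibroblast, 4 adipocyte, 2 endothelial, 1 pericyte and 1 immune gene. These lists held 13, 10, 10, 10 and 9 genes in that order, and over all genes the share was 6.96%.

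The genes most like Upk3b were taken from 752 genes with a range of at least 0.5 over the 8 arrays. By Pearson r these were Slc6a17, an amino acid transporter gene (0.96), Lyve1, a hyaluronan receptor gene (0.95), Gpm6a (0.91), Tmem176b (0.91), Ahsg, the gene of the liver glycoprotein fetuin-A (0.91), Aldh1a2 (0.90), the cytokine receptor gene Cntfr (0.89), the prostaglandin transporter gene Slco2a1 (0.89), the chemokine gene Cxcl13 (0.88) and the splicing factor gene Sf3a2 (0.87). They were chosen for their likeness, so no test is given, and 0 of them passed the fit over all genes. Lyve1 was at -0.08, 0.07, -0.20 and 0.04 in the males and at -0.26, -0.04, 0.28 and 0.51 in the females. Like Upk3b, it was highest in females 4 and 3 and lowest in female 1, and without those 2 highest hearts its r was 0.83. Cxcl13 was at -1.05, 0.03, -0.78 and -0.03 in the males and at -0.996, 0.08, 0.10 and 0.61 in the females, so its 3 lowest hearts were those low in atrial genes.

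Against the mean of the 10 members, the most alike were Igfbp5, a gene of an insulin-like growth factor binding protein (0.93), Sorbs3 (0.92), Naxe (0.89), Crtc1 (0.89), Vsig10l (0.88), Lyve1 (0.88), Slc6a17 (0.88), Zcchc24 (0.88), Midn (0.87) and Cilp2 (0.87). Lyve1 and Slc6a17 stood in both lists. Igfbp5 was at -0.17, -0.02, 0.04 and 0.31 in the males and at -0.31, -0.19, 0.02 and 0.42 in the females. Its highest hearts were female 4 and male 4 and its lowest female 1, the order seen in Upk1b and Msln.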

How the data were processed

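Values were deposited by the authors as 1 table of log2 values for 34351 probe sets on 8 arrays, and all probe sets had a median of 0 over the arrays (tolerance 1e-06). Per the labels, biotin-labelled cRNA was made from 100 ng of total RNA by an Affymetrix protocol. The software, log base and background correction behind them: not given in the sources used here; base 2 was taken. Of the probe sets 23521 had 1 symbol in the platform annotation, 1814 had several and were left out, and 9016 were unnamed here. Probe sets of a gene were averaged to 22180 genes. The 10 members matched the RefSeq gene table by Entrez ID.

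Females minus males was fitted with limma 3.58.1 in R 4.3.3 (lmFit, eBayes) with Benjamini-Hochberg adjustment over all genes. Correlations over arrays used exact two-sided permutation tests over all 40320 pairings, in Python 3.11.15. Values centred within each sex were permuted over the same pairings, so their p-values are approximate. The code was tested on simulated data. Settings changed in turn were normalization, centring, variance model, array weights, replicate block, adipocyte or atrial covariates, single probe sets, thresholds and each array left out.

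Members and lists were chosen with earlier results of these data known. By rule all members were named, with up to 4 genes past the threshold or the 2 of smallest p of each other list, and the 10 most alike genes without predicted, RNA-only and olfactory genes. Other genes were named after their values were seen.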

Additional observations from a re-analysis of the deposited data

Results flagged for a closer look

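In 52 groups of 4 hearts (the 10 members and 16 list means in each sex), 3 had a heart far from the rest by Dixon's criterion, which chance gives in about 1 of 20 groups. Tcf21 was at -0.19 in male 4, against -0.01 to 0.0025 in the other males. The thymus list had a mean of 0.021 in male 3, against -0.028 to -0.020 in the other males. The nerve and Schwann cell list had a mean of -0.00055 in male 2, against -0.015 to -0.014 in the other males.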

How the results depend on the processing

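No member passed between the sexes under any setting run, with adjusted p of at least 0.584 over the 10 members and 15 settings of the gene fit. With the adipocyte list as a covariate the difference turned for Upk3b (-0.074), Krt8 (-0.037), Tbx18 (0.016), Tcf21 (-0.11), Upk2 (-0.0013), Nr2f2 (-0.028), Stard10 (-0.091) and Pvalb (0.014), and with the first Krt18 probe set by itself it was 0.041. With each array left out in turn the sign also turned for Msln (-0.10 to 0.076), Krt8 (-0.011 to 0.089), Krt18 (-0.014 to 0.00077), Krt19 (-0.012 to 0.050), Tbx18 (-0.060 to 0.025) and Tcf21 (-0.011 to 0.13). Over all genes 4 to 7 differed with an array left out, the 4 without male 3. The deviations of arrays with the same replicate number correlated at 0.137, 0.0972, 0.00618 and 0.0906. Males 1 and 2 were most like the female of their own number, and males 3 and 4 were not. Whether a shared number means more than a label was not tested. With the replicate block 8 genes differed in place of 7, no member passed, and Upk3b had an adjusted p of 0.743. Of the member pairs, 1 passed with values centred within each sex, by an approximate p, and 0 passed with any array left out. Of the mesothelial genes correlated with Upk3b, 2 passed by Spearman's rho and 0 to 6 with an array left out. Exactly 1 list passed with Upk3b in each setting run. Filters on brightness were not run, since centred values hold none. Precision is limited by 8 arrays.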
